A study of Mus musculus with 12 samples.

Results

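The miR-99, miR-100 and miR-125 miRNAs were measured by 6 of the 375 miRNA assays of a TaqMan low-density array (TLDA), namely mmu-miR-99a, mmu-miR-99b, mmu-miR-100, mmu-miR-125a-3p, mmu-miR-125a-5p and mmu-miR-125b-5p. The assays were chosen by name, as the rows whose name is one of these miRNAs followed by its assay number. RNA came from primary lung endothelial cells of male wild type C57BL/6N mice, 6 to 10 weeks old, with 3 mice pooled for each isolation and the cells selected with CD144 and CD31 antibodies on magnetic beads. 4 arrays each were run for unstimulated control cells, for cells stimulated with Tri-DAP (TD in the labels), a ligand of the cytosolic receptor NOD1, and for cells stimulated with MDP, a ligand of NOD2. All cells were starved for 2 hours beforehand, each ligand was given at 10 µg/mL, and the RNA was taken after 6 hours. The labels give every array a number of its own (control 4, 7, 10 and 13, Tri-DAP 5, 8, 11 and 14, MDP 6, 9, 12 and 15), which is used here as its name. Neither the labels nor the methods state which arrays share an isolation.

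MiRNAs are short RNAs that guide a silencing complex to messenger RNAs, mainly by pairing of their seed, bases 2 to 8, with the target. The miR-99, miR-100 and miR-125 miRNAs are conserved far beyond mammals and lie, together with a let-7 miRNA, in paralogous genomic clusters that can be transcribed as one long precursor. Each hairpin can give a mature miRNA from its 5p and its 3p arm, one of which usually prevails in the cell. The miRNAs of the miR-99 and miR-100 family are known to target mTOR, miR-125b is known to target Tnf, and in endothelial cells miR-125a has been described as a regulator of NOD1.

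The mature sequences fall into 3 seed groups and are shown because each assay was matched by name to one of them and because the comparison of seeds below rests on them. They are given 5′ to 3′ from RefSeq on GRCm38.p6, with the seed in capitals and the rest in lower case.
miR-99a: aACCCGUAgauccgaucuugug
miR-99b: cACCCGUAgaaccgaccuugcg
miR-100: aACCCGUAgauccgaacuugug
miR-125a-5p: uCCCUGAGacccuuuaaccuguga
miR-125b-5p: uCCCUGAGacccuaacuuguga
miR-351: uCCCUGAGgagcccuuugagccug
miR-125a-3p: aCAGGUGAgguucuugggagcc

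MiR-99a, miR-99b and miR-100 share the seed ACCCGUA. Counted from 1 at the 5′ end, miR-99a and miR-100 differ by 1 substitution (U16A, the miR-99a base first), and miR-99a and miR-99b by 4 (A1C, U11A, U16C and U21C), all of them outside the seed. MiR-125a-5p and miR-125b-5p share the seed CCCUGAG and their first 13 bases, and are 24 and 22 bases long. MiR-351 is the only other assay matched to RefSeq whose mature sequence carries this seed, and with miR-125a-5p it shares the first 8 bases. MiR-125a-3p comes from the same hairpin as miR-125a-5p but has the seed CAGGUGA, which no other mature miRNA of the RefSeq table carries.

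On GRCm38.p6 the mature miRNAs lie in 3 clusters, all on the plus strand. MiR-99a (chr16:77598940-77598961) is followed by let-7c and by one copy of miR-125b-5p (chr16:77646279-77646300), over 47400 bases. MiR-99b (chr17:17830194-17830215) is followed within 683 bases by let-7e and by both arms of miR-125a, the 5p arm at chr17:17830817-17830840 and the 3p arm at chr17:17830855-17830876, and this cluster lies within the span of the gene Spaca6. The miR-100 gene product (chr9:41531437-41531458) is followed by let-7a and by the other copy of miR-125b-5p (chr9:41581940-41581961) over 50565 bases within the span of the host gene Mir100hg. Whether these positions are exonic or intronic was not determined, as the RefSeq table used here gives gene spans only. Both copies of miR-125b-5p have the same mature sequence, so the assay sums the product of the chr9 and the chr16 cluster.

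A TLDA reports for each assay the PCR cycle at which fluorescence crosses a threshold (Ct), where a lower Ct stands for more RNA, 1 cycle is a factor of 2 at full efficiency, and 40 marks a well that crossed no threshold. All 6 miRNAs were measured on all 12 arrays, and none reached Ct 35 on any array. Of all miRNA assays, 231 to 254 were measured per array. The endothelial miRNAs miR-126-3p and miR-126-5p lay between Ct 18.6 and 22.4 on all arrays. Of the markers of other cells, 1 of 6 epithelial, 2 of 4 leukocyte and 2 of 4 mural and muscle miRNAs were measured on every array, the red cell miRNA miR-451 was measured on 3 arrays, and the summed log2 levels of the first 3 lists relative to U6 overlapped between the groups, for the mural and muscle list with −9.70 to −3.27 in control cells, −8.47 to −4.69 after Tri-DAP and −10.12 to −3.38 after MDP. The epithelial miR-200a, miR-200b, miR-200c and miR-141 were measured on 10 or 11 arrays, with miR-200b as early as Ct 25.6. The leukocyte miR-150 lay between Ct 29.1 and 30.5. The mural miR-145 ranged from Ct 23.1 to 33.1, and the earliest Ct of the 6 miRNAs was 23.2 (miR-125b-5p). Some markers of other cells thus reached the levels of the 6 on some arrays. The part of other cells in the values below was not tested.

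MiR-125b-5p was the most abundant of the 6 miRNAs, with a mean Ct of 23.8 over the 12 arrays and rank 19 among the 320 miRNAs measured on any array, counted from the earliest Ct. MiR-99b followed with a mean Ct of 24.9 (rank 31) and miR-125a-5p with 25.2 (rank 34). Both miR-100 and miR-99a had a mean Ct of 26.9 (ranks 53 and 59). MiR-125a-3p came last with a mean Ct of 31.7 (rank 187), later than 58.1% of the measured miRNAs. Thus 5 of the 6 belonged to the more abundant miRNAs of these cells, and the 3p arm did not. Levels of different assays are set side by side on the assumption of equal PCR efficiency, which was not tested.

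Not every neighbour in this order was separated. In control cells miR-125b-5p exceeded miR-99b by 1.21 ± 0.64 on the log2 scale (SD, n = 4) and did so on 12 of 12 arrays. MiR-99b and miR-125a-5p, which share a cluster, differed by 0.028 ± 0.42 (SD, n = 4) in control cells, less than the spread between arrays, and miR-99b was the higher on 9 of 12 arrays. MiR-125a-5p exceeded miR-99a by 1.87 ± 0.50 (SD, n = 4) and on 12 of 12 arrays. MiR-99a and miR-100, the pair with a single base between them, differed by 0.011 ± 0.21 (SD, n = 4), with miR-99a the higher on 4 of 12 arrays. An assay of one of this pair may also read the other, which was not tested. The next step, from miR-100 to miR-125a-3p, was larger, as miR-100 was higher by 4.77 ± 0.26 (SD, n = 4) and on 12 of 12 arrays.

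The first comparison asked which of these miRNAs respond to NOD1 or NOD2 stimulation. None of the 6 miRNAs passed the test after either ligand. Relative to U6, the small nuclear RNA to which the arrays were normalized, all 6 means lay below control after Tri-DAP, with differences of −0.46 to −0.10 on the log2 scale, and all 6 did after MDP, with −0.27 to −0.0044. These differences were smaller than the spread between arrays, and the values of the groups overlapped for every one of the 6. The values of single arrays follow, with the standard error from limma and the two-sided exact permutation p of each difference, as log2 expression relative to U6, that is, the U6 mean Ct minus the Ct of the miRNA.

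MiR-99a in control cells was −7.41, −7.35, −7.56 and −6.38 (arrays 4, 7, 10 and 13). After Tri-DAP it was −7.19, −6.09, −7.93 and −8.36 (arrays 5, 8, 11 and 14), and after MDP −7.04, −7.95, −7.95 and −6.85 (arrays 6, 9, 12 and 15). Tri-DAP 8 gave the highest and Tri-DAP 14 the lowest value of all 12 arrays, so that the Tri-DAP group enclosed both other groups. The difference from control was −0.22 (SE 0.61, exact permutation p = 0.69) after Tri-DAP and −0.27 (SE 0.61, p = 0.49) after MDP.

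MiR-99b, with the same seed, was −5.34, −5.14, −5.63 and −4.99 in control cells. It was −5.12, −3.83, −6.34 and −6.22 after Tri-DAP and −4.56, −5.46, −6.10 and −5.13 after MDP. The control arrays lay close together, whereas Tri-DAP 8 and MDP 6 stood above all of them and Tri-DAP 11 and 14 and MDP 12 below. The difference from control was −0.10 (SE 0.63, exact permutation p = 0.94) after Tri-DAP and −0.037 (SE 0.63, p = 0.91) after MDP.

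The level of miR-100 was −7.24, −7.26, −7.55 and −6.68 in control cells. It was −7.65, −6.16, −7.85 and −7.85 after Tri-DAP and −6.98, −7.46, −8.05 and −6.48 after MDP. Here 3 of the 4 Tri-DAP arrays lay below every control array, and Tri-DAP 8 lay above all of them. The difference from control was −0.19 (SE 0.57, exact permutation p = 0.63) after Tri-DAP and −0.057 (SE 0.57, p = 0.89) after MDP.

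MiR-125a-5p, the prevailing arm of its hairpin, was −5.83, −4.73, −5.89 and −4.76 in control cells. It was −5.53, −3.90, −6.54 and −7.07 after Tri-DAP and −5.07, −5.25, −6.26 and −5.73 after MDP. Its difference from control after Tri-DAP, −0.46 (SE 0.70), was the largest among the 6 miRNAs (exact permutation p = 0.60), and after MDP it was −0.27 (SE 0.70, p = 0.51). The difference after Tri-DAP was −0.019 without Tri-DAP 14 and −1.08 without Tri-DAP 8. Array 8 was the highest and array 14 the lowest of all 12 arrays, both of the Tri-DAP group.

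MiR-125b-5p was −3.41, −3.67, −5.18 and −4.01 in control cells. It was −3.74, −2.71, −5.46 and −5.50 after Tri-DAP and −3.13, −3.59, −5.51 and −4.05 after MDP. The lowest values came from arrays of every group, namely arrays 10, 11, 12 and 14. The difference from control was −0.29 (SE 0.77, exact permutation p = 0.71) after Tri-DAP and −0.0044 (SE 0.77, p = 1) after MDP.

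MiR-125a-3p, the rarer arm, was −11.78, −12.39, −12.17 and −11.48 in control cells. It was −11.55, −10.96, −13.51 and −13.18 after Tri-DAP and −11.17, −12.30, −13.59 and −11.53 after MDP. Tri-DAP 11 and 14 and MDP 12 lay below every control array and Tri-DAP 8 and MDP 6 above, as for miR-99b. The difference from control was −0.34 (SE 0.72, exact permutation p = 0.60) after Tri-DAP and −0.19 (SE 0.72, p = 0.83) after MDP.

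**Figure D1:**
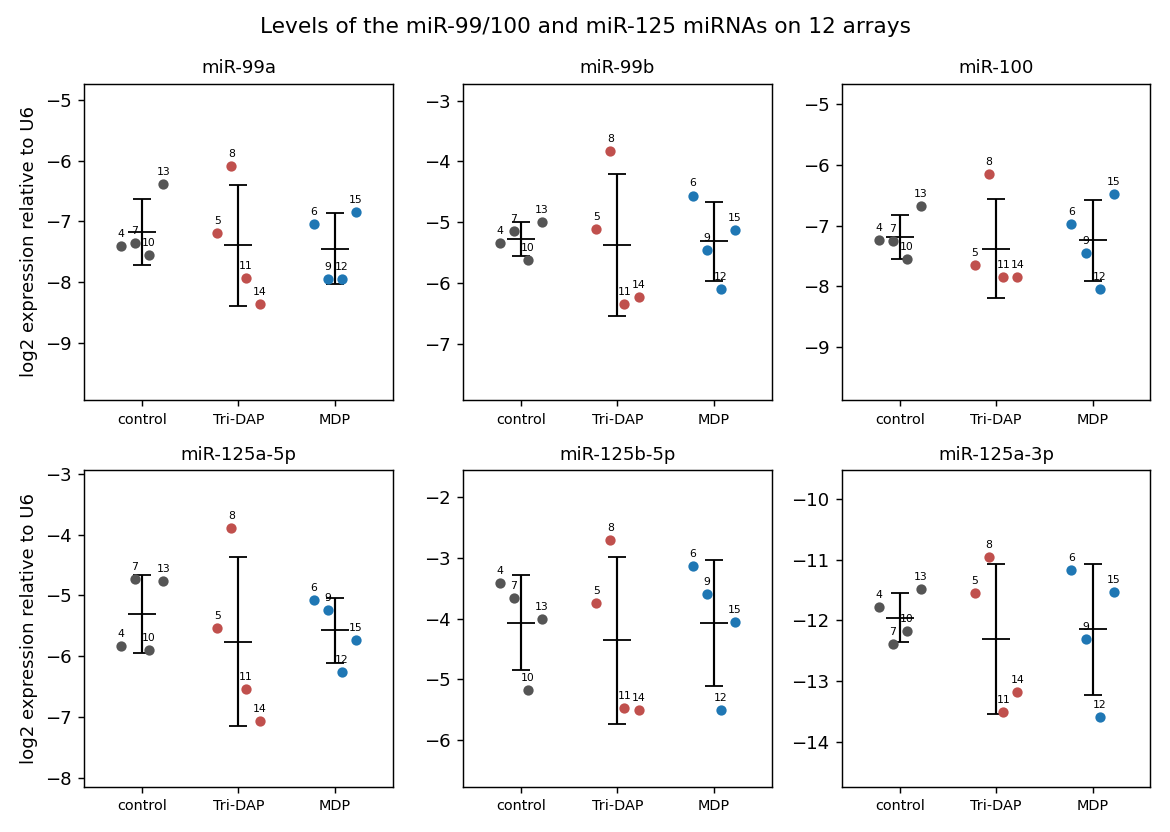
Log2 expression relative to U6 (vertical axis) of the 6 miRNAs on the control, Tri-DAP and MDP arrays, with the array number beside each point and mean and SD in black (n = 4 per group). All panels have the same span. In every panel the groups overlap and Tri-DAP array 8 is the highest point of its group.

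Over all miRNAs tested, 4 of 237 (1.69%) passed the unadjusted limma threshold of 0.05 after Tri-DAP and 3 of 244 (1.23%) after MDP, against 0 of 6 here in either comparison, where the smallest limma p was 0.53 (miR-125a-5p) and 0.66 (miR-99a). Between the ligands, MDP against Tri-DAP, 7 of 241 miRNAs (2.90%) passed and again 0 of 6 here. The differences of the 6 ran from −0.057 to 0.28, with a smallest limma p of 0.72. Of the 6, 1 was lower after MDP, beside 61 of 241 (25.3%) of all miRNAs tested. After Benjamini-Hochberg adjustment over all miRNAs tested, the smallest limma adjusted p of any miRNA was 0.998 for Tri-DAP, 0.9997 for MDP and 0.505 for MDP against Tri-DAP. That all 6 means lay below control after Tri-DAP is to be read beside 178 of 237 miRNAs (75.1%) that did so, and after MDP beside 132 of 244 (54.1%). The median difference of the 6 was −0.25 after Tri-DAP and −0.12 after MDP, beside −0.24 and −0.0215 over all miRNAs tested. Complete separation of stimulated from control arrays was found for 0 of 181 miRNAs measured on all 8 arrays after Tri-DAP (0.00%) and for 0 of 181 after MDP (0.00%).

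The 4 arrays per group left room for sizeable changes. The 95% intervals of the 6 differences lay between −1.98 and 1.39 after Tri-DAP and between −1.79 and 1.67 after MDP, that is, between 0.254-fold and 2.62-fold of control for Tri-DAP and between 0.288-fold and 3.19-fold for MDP. Both comparisons use the same control arrays. Leaving out Tri-DAP 8, the array with the latest U6, moved the differences after Tri-DAP to −1.08 to −0.60 with a smallest limma p of 0.083, while the median over all miRNAs tested moved to −0.66. Leaving out Tri-DAP 14, the array with the earliest U6, moved them to −0.052 to 0.18, and leaving out Tri-DAP 11 to −0.20 to 0.22, with 3 of 6 below control in both cases. The median over all miRNAs tested was then 0.042 without Tri-DAP 14 and −0.070 without Tri-DAP 11.

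The spread depended on the reference. The mean Ct of the 4 U6 wells ranged from 18.3 to 21.6 over the arrays (SD 0.88), while the average over the 174 miRNAs with a Ct on every array ranged from 28.2 to 29.7 (SD 0.45). The SD of the 4 U6 wells of an array was between 0.112 and 2.05, largest on MDP 12 (wells from Ct 15.67 to 19.98) and 1.93 on Tri-DAP 14. With the median U6 well in place of the mean, 2 of 6 miRNAs lay below control after MDP and 6 of 6 after Tri-DAP. The median difference over all miRNAs tested was then 0.22 after MDP and −0.35 after Tri-DAP. U6 was latest on Tri-DAP 8, at 21.6, and earliest on Tri-DAP 14, at 18.3. The average over the 174 miRNAs with a Ct on every array is called the mean miRNA below. Relative to it, the standard errors of the 6 differences fell from between 0.57 and 0.77 to between 0.27 and 0.44. The differences from control were then −0.22 to 0.13 after Tri-DAP, with 3 of 6 below control, and −0.24 to 0.030 after MDP, with 5 of 6 below control. Between the ligands the 6 differences were −0.25 to 0.085, with 5 of 6 lower after MDP than after Tri-DAP. Of all miRNAs tested, 128 of 241 (53.1%) were lower after MDP, against 61 of 241 (25.3%) relative to U6. The direction of this comparison thus turned with the reference over all miRNAs tested as well as for the 6. The 95% intervals against control lay between −1.11 and 1.01, that is, between 0.463-fold and 2.01-fold of control, and the smallest limma p was 0.43. Those between the ligands lay between −0.89 and 1.06, with a smallest limma p of 0.40. By this reference, too, 0 of 6 passed in either comparison with control or between the ligands.

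**Figure D2:**
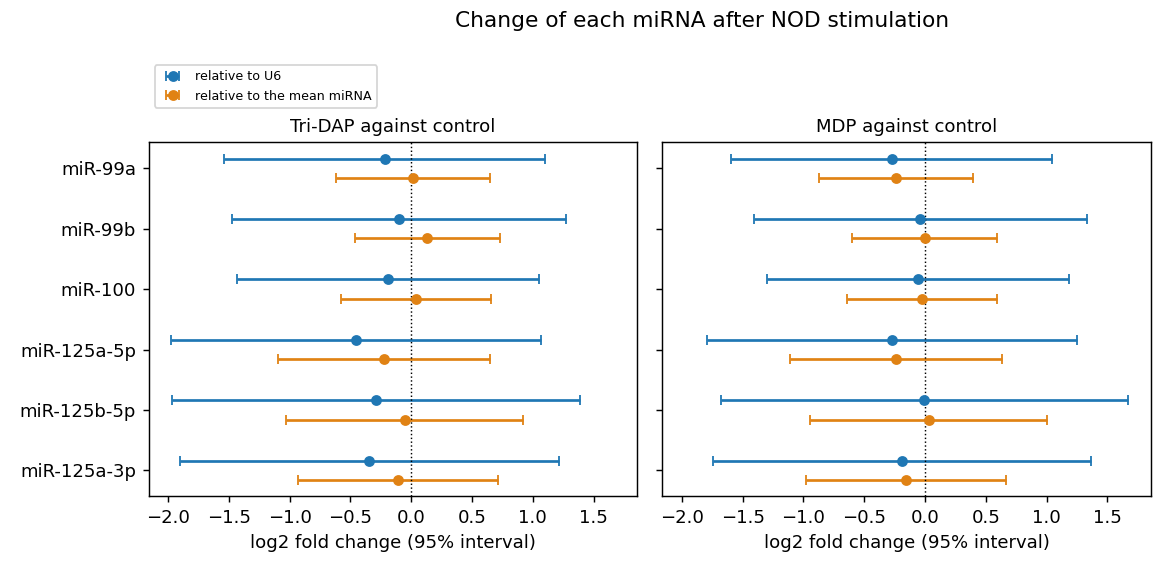
Log2 fold change of each miRNA against control (points) with its 95% interval (bars) after Tri-DAP (left) and MDP (right), relative to U6 (blue) and to the mean miRNA (orange), n = 4 arrays per group. Every interval includes 0, and the orange intervals lie between −1.11 and 1.01.

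Relative to the mean miRNA, the 3 miRNAs with the seed ACCCGUA were among the steadiest of the array, but not all of them were in Ct. The SD within groups relative to the mean miRNA was 0.25 for miR-99b, 0.27 for miR-100 and 0.29 for miR-99a, which were ranks 4, 6 and 9 among 174 miRNAs counted from the smallest. The miR-125 miRNAs varied more, with 0.47 for miR-125a-3p (rank 42), 0.51 for miR-125a-5p (rank 52) and 0.60 for miR-125b-5p (rank 73), and the median of all 174 was 0.69. For miR-125b-5p this SD includes a step described below, from 5.28 to 5.73 on arrays 4 to 9 to 4.24 to 4.76 on arrays 10 to 15. In Ct without any reference the order was another, as miR-99b (0.36, rank 8), miR-125a-5p (0.38, rank 11) and miR-125b-5p (0.43, rank 20) then varied least and miR-100 (0.62, rank 55) and miR-99a (0.63, rank 58) varied more. No test was made of these ranks.

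Differences between miRNAs of the same array need no reference. The 5p arm of miR-125a exceeded the 3p arm by 5.96, 7.66, 6.28 and 6.72 log2 units in control cells, by 6.02, 7.07, 6.97 and 6.11 after Tri-DAP and by 6.10, 7.06, 7.33 and 5.80 after MDP. The means were 6.65 ± 0.74 in control cells, 6.54 ± 0.55 after Tri-DAP and 6.57 ± 0.74 after MDP (SD, n = 4 each). Over all 12 arrays the mean difference of 6.59 is 96.3-fold, with 55.6-fold on the lowest array (MDP 15) and 202-fold on the highest (control 7). The arm difference changed by −0.11 after Tri-DAP (95% interval −1.20 to 0.98) and by −0.082 after MDP (95% interval −1.17 to 1.01), each with an exact permutation p of 0.89 (two-sided). The prevalence of the 5p arm was thus present on 12 of 12 arrays, and a change of it by either ligand was not detectable with 4 arrays per group.

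The seed groups were compared as the mean of miR-99a, miR-99b and miR-100 minus the mean of miR-125a-5p and miR-125b-5p. This difference was −2.05, −2.38, −1.38 and −1.63 in control cells, −2.01, −2.05, −1.37 and −1.19 after Tri-DAP and −2.09, −2.54, −1.48 and −1.26 after MDP. The mean of miR-125a-5p and miR-125b-5p was the higher on every array, and the groups overlapped. The means were −1.86 ± 0.44 in control cells, −1.66 ± 0.44 after Tri-DAP and −1.84 ± 0.58 after MDP (SD, n = 4 each). The methods name 4 cell isolations, and taking consecutive label numbers as sets of 1 isolation would be an assumption, so the arrays were treated as unpaired. Any difference between isolations then counts as spread in the unpaired intervals. The change was 0.20 after Tri-DAP (95% interval −0.59 to 0.99, exact permutation p = 0.54) and 0.017 after MDP (95% interval −0.77 to 0.80, exact permutation p = 1). With such sets, the change after Tri-DAP was between 0.0060 and 0.44 and above 0 in 4 of 4 sets. Its 95% interval was −0.066 to 0.47 and its exact permutation p was 0.125, the smallest that 4 sets allow. The change from Tri-DAP to MDP was between −0.48 and −0.071, above 0 in 0 of 4 sets. Its 95% interval was −0.45 to 0.083, with the same exact permutation p of 0.125. Both use the same Tri-DAP arrays. The change after MDP was between −0.16 and 0.37, above 0 in 1 of 4 sets. For the arm and cluster differences, no comparison had all 4 sets on the same side of 0. The sets were chosen after seeing the data.

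Neighbours of a cluster were also set against each other. MiR-99b minus miR-125a-5p was 0.48, −0.40, 0.27 and −0.24 in control cells, 0.42, 0.070, 0.20 and 0.85 with Tri-DAP, and 0.51, −0.21, 0.16 and 0.60 with MDP. This difference lay above 0 on 4 of 4 Tri-DAP arrays, and its change of 0.35 after Tri-DAP (95% interval −0.25 to 0.96) had the smallest p of the 15 tests made on differences within an array (exact permutation p = 0.26, adjusted p = 0.95). MiR-99a minus miR-125b-5p averaged −3.11 ± 0.86 in control cells, −3.04 ± 0.47 after Tri-DAP and −3.37 ± 0.90 after MDP (SD, n = 4 each). The difference miR-100 minus miR-125b-5p averaged −3.12 ± 0.70, −3.02 ± 0.78 and −3.17 ± 0.79 in the same order. Its change after Tri-DAP had a 95% interval of −1.12 to 1.31 unpaired and −0.15 to 0.34 with consecutive label numbers as sets. With such sets the intervals after Tri-DAP were −0.46 to 0.60 for miR-99a minus miR-125b-5p and −0.15 to 0.86 for miR-99b minus miR-125a-5p. All 3 include 0. No change of a cluster difference passed the unpaired exact permutation test, whose smallest possible p is 0.029, and the smallest of the 15 adjusted p-values was 0.949.

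**Figure D3:**
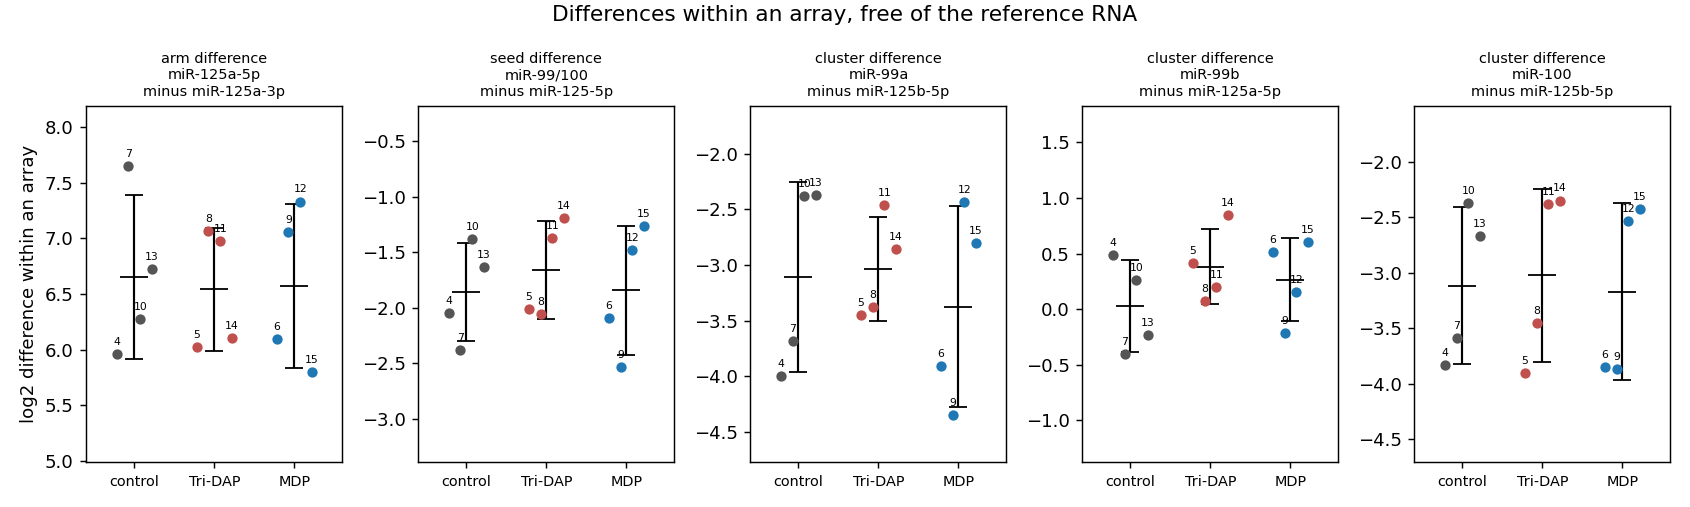
Log2 difference within an array (vertical axis) between the arms of miR-125a, between the seed groups and between the neighbours of the 3 clusters, on control, Tri-DAP and MDP arrays, with array numbers beside the points and mean and SD in black (n = 4 per group). All panels have the same span, the groups overlap in each of them, and the arm difference is at least 5.80 on every array.

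The let-7 miRNAs of the 3 clusters, tumour-suppressive miRNAs with a seed of their own, were tested beside their neighbours, and 0 of 3 passed in either comparison. Relative to U6, let-7a differed from control by 0.18 after Tri-DAP and 0.72 after MDP, let-7c by −0.23 and −0.076, and let-7e by −0.033 and −0.17. MiR-351, which shares the miR-125 seed but lies on chromosome X, differed by 0.53 (SE 1.24) after Tri-DAP and −0.68 (SE 1.24) after MDP and did not pass either. The 3p assay of miR-125b, which was not among the 6 and was added after its values had been seen, differed by −1.26 (SE 1.12, exact permutation p = 0.43) and −0.76 (SE 1.12, p = 0.46).

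Likeness of 2 miRNAs over the arrays was described by the SD of their Ct difference within an array over all 12 arrays, where a small SD means that they moved together, and each of the 6 was compared with 165 other mouse miRNAs measured on all arrays. All points share the RNA and the array, so this is a description without a test. The most alike to miR-99b was let-7e, its cluster neighbour, with an SD of 0.21 cycles, before let-7i and miR-744 with 0.25 each, against a median of 0.64 over the 165. The other miRNAs of this cluster were less alike to miR-99b, miR-125a-5p with 0.37 (rank 23) and miR-125a-3p with 0.38 (rank 25). Let-7b and let-7c came before both, with 0.26 each (ranks 4 and 5). The let-7 neighbours of the other clusters were less alike, with an SD of 0.42 (rank 16) for miR-99a with let-7c and 1.04 (rank 122) for miR-100 with let-7a. The mature let-7c and let-7a also have copies outside these clusters, on chr15 and chr13. Their assays thus do not read the cluster neighbour alone. The most alike to miR-99a were let-7i (0.24), miR-100 and miR-10a (0.29 each), and for miR-100 miR-10a (0.20), let-7i (0.21) and miR-301a (0.27), with a median of 0.72 for both.

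The 5p arm of miR-125a was most alike to let-7d (0.28), let-7c (0.31) and miR-26b (0.32), with a median of 0.75. The 3p arm was most alike to miR-99b (0.38), miR-21 (0.40) and let-7i (0.42), with a median of 0.78. The arms of miR-125a differed from each other with an SD of 0.62, which placed the 3p arm at rank 60 of 165 as seen from the 5p arm and the 5p arm at rank 46 as seen from the 3p arm. MiR-125b-5p was most alike to miR-221 (0.35), miR-34a (0.37) and miR-331-3p (0.39), with a median of 0.83. Its SD against its neighbours miR-99a and miR-100 was 0.71 and 0.69, more than against miR-125a-5p of the same seed (0.54). It was smaller still against miR-125a-3p (0.52) and miR-99b (0.47), which have other seeds. These SDs span the step of miR-125b-5p between arrays 4 to 9 and arrays 10 to 15, described below. On these sets miR-100 minus miR-125b-5p was −3.91 to −3.45 and −2.67 to −2.35. MiR-99a minus miR-125b-5p was −4.35 to −3.38 and −2.85 to −2.37.

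**Figure D4:**
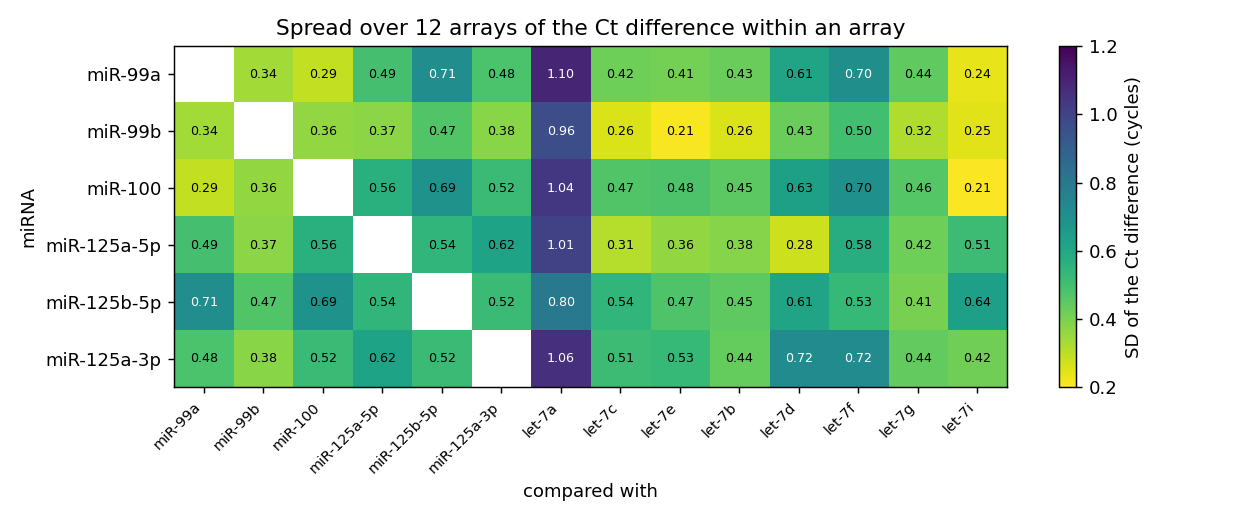
SD over the 12 arrays of the Ct difference within an array, in cycles, between each of the 6 miRNAs (rows) and the 6 miRNAs and 8 let-7 miRNAs (columns), as numbers and as colour, where yellow marks pairs that moved together. The smallest value in the row of miR-99b is 0.21 with let-7e, and the column of let-7a holds the largest value of every row, between 0.797 and 1.098.

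MiR-125b-5p also differed between arrays with low and high label numbers. Relative to the mean miRNA it was 5.48, 5.40, 5.28, 5.31, 5.39 and 5.73 on arrays 4 to 9 and 4.24, 4.25, 4.29, 4.76, 4.53 and 4.62 on arrays 10 to 15, so that the 2 sets did not overlap. Each set holds 2 arrays of every group, the labels do not say what the numbers stand for, and the division was made after the values had been seen, so no test is given. Of the 174 miRNAs measured on all arrays, 32 (18.4%) did not overlap in this division, miR-125b-5p among them. Among the 6 miRNAs it was miR-125b-5p alone, while miR-125a-5p, with the same seed, ranged from 3.06 to 4.24 and from 2.94 to 4.02. The seed difference, in which miR-125b-5p enters, was −2.54 to −2.01 on arrays 4 to 9 and −1.63 to −1.19 on arrays 10 to 15, and miR-100 minus miR-125b-5p was −3.91 to −3.45 and −2.67 to −2.35.

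MiR-351 went the other way in Ct, from Ct 30.4 to 34.4 on arrays 4 to 9 and from Ct 28.0 to 29.6 on arrays 10 to 15. In Ct without a reference, miR-125b-5p itself overlapped between the sets, with 23.2 to 24.3 and 23.5 to 24.4. Relative to the mean miRNA the values of miR-351 overlapped between the sets, with −5.73 to −0.70 and −1.32 to 0.53. Within the sets, miR-125b-5p differed from control by 0.00091 after Tri-DAP and 0.11 after MDP on arrays 4 to 9, and by −0.11 and −0.052 on arrays 10 to 15. For miR-125a-5p these differences were 0.25 and 0.0575 on arrays 4 to 9 and −0.70 and −0.54 on arrays 10 to 15. With 2 arrays per group in each set, these values are given without a test.

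**Figure D5:**
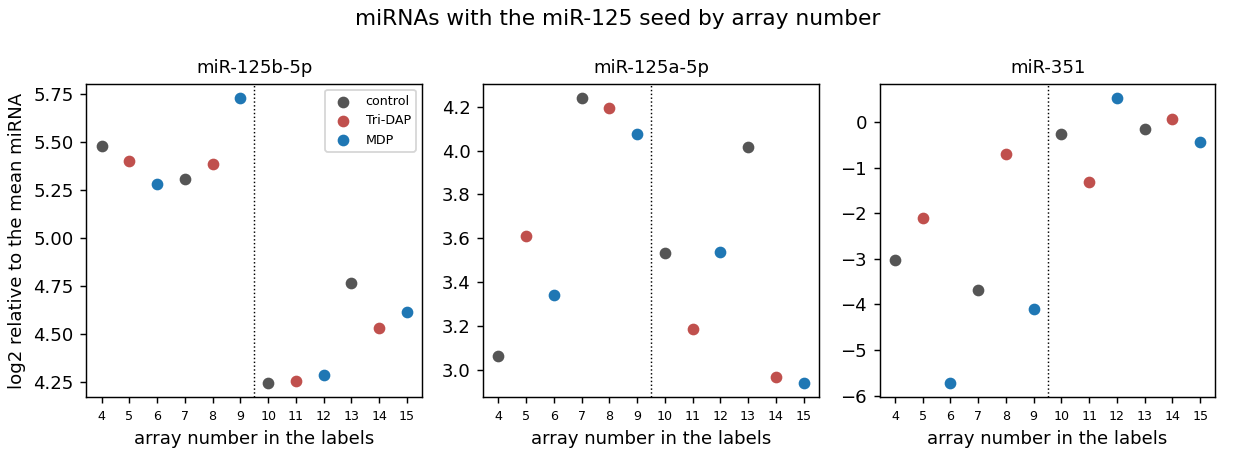
Log2 expression relative to the mean miRNA (vertical axis, with its own range in each panel) of the 3 miRNAs with the miR-125 seed, by the number of the array in the labels (horizontal axis), coloured by group, with a dotted line between arrays 9 and 10. MiR-125b-5p lies between 5.28 and 5.73 left of the line and between 4.24 and 4.76 right of it, whereas miR-125a-5p and miR-351 overlap.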

How the data were processed

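Pulmonary endothelial cells of 3 groups (control, Tri-DAP, MDP) were measured on 12 TLDAs, grouped by the labels. The authors deposited Ct values, in cycles and not normalized, with 40 for undetermined wells, and log2-scale normalized values, in which the average of the 4 U6 wells was subtracted from every Ct of an array (checked here on all wells, within 5.33e-15). A further deposited table holds the authors' own fold changes and was not used, and neither were 12 unnamed columns. HTqPCR, named in the methods beside limma, was not used.

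The sign of these values was turned, and wells at 40 set missing. A miRNA was tested with at least 2 measured values in each group compared, in one limma fit (version 3.58.1, R 4.3.3) over all 12 arrays, without a block, calling at an unadjusted p under 0.05, with Benjamini-Hochberg adjustment over all miRNAs tested beside it. Intervals are at 95%. Differences within an array were tested by two-sided exact permutation tests, adjusted over the 15 tests. The fit was tested on simulated data. P-values measure the spread between these arrays.

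Named by rule were the 6 miRNAs, assays sharing a seed with them, the let-7 assays of their clusters, the 3 most alike miRNAs for each, and the reference RNAs; besides these, markers of endothelial and other cells and the 3p assay of miR-125b are named. Of the 335 mouse assays (40 are rat), 280 matched a RefSeq mature name, among them all 6. Members, lists and tests were chosen with earlier results of these data known. Alternatives covered other reference RNAs, a limit at Ct 35, wells kept at 40, stricter filters, fits of the compared groups alone, other tests and leaving out each array. Chosen after seeing the data were a block of consecutive label numbers (for differences within an array, with sign flips within sets), the division of arrays 4 to 9 and 10 to 15, and the median U6 well. The number of arrays limits the precision.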

Additional observations from a re-analysis of the deposited data

Results flagged for a closer look

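The value of miR-100 on Tri-DAP 8, −6.16 relative to U6, stood apart from the other 3 Tri-DAP arrays, which lay between −7.85 and −7.65, by Dixon's criterion for 4 values. It was 1 of 33 groups of 4 values examined, and chance alone gives about 1 in 20, here 1.65. U6 on this array had a mean Ct of 21.6, the latest of all 12 arrays. Relative to the mean miRNA, miR-100 on Tri-DAP 8 was 1.94, between the values of Tri-DAP 11 (1.87) and Tri-DAP 14 (2.18).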

How the results depend on the processing

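In none of the alternatives did any of the 6 miRNAs or any difference within an array pass its threshold. For differences within an array, some settings could not pass it. The smallest possible exact permutation p was 0.125 within sets of consecutive label numbers. On arrays 4 to 9 or 10 to 15 alone, with 2 arrays per group, it was 0.333. Of 498 recomputed differences, 189 were as reported, many of them because the setting cannot move them, 238 moved without changing sign and 71 changed sign, none of them passing its threshold. After Tri-DAP, with the mean miRNA as reference, miR-99a was 0.016, miR-99b 0.13 and miR-100 0.040, and without normalization miR-99b was 0.0135. After MDP, miR-125b-5p was 0.030 with the mean miRNA. With the median U6 well it was 0.24, miR-99b 0.21, miR-100 0.19 and miR-125a-3p 0.0555. With group medians, the arm difference changed by 0.0405 after Tri-DAP and 0.0775 after MDP, miR-99a minus miR-125b-5p by −0.088 after Tri-DAP, and miR-99b minus miR-125a-5p by 0.028 between MDP and Tri-DAP. On arrays 10 to 15 alone, the arm difference changed by 0.0405 after Tri-DAP and 0.065 after MDP, miR-99a minus miR-125b-5p by −0.29 after Tri-DAP and 0.0385 between the ligands, and miR-100 minus miR-125b-5p by 0.0385 after MDP. On arrays 4 to 9 alone, the seed difference changed by −0.099 after MDP. The causes were not tested.

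Leaving out each array in turn gave, after Tri-DAP, −0.65 to 0.11 for miR-99a, −0.62 to 0.22 for miR-99b, −0.79 to 0.060 for miR-125a-3p, −0.84 to 0.096 for miR-125b-5p, −1.08 to −0.019 for miR-125a-5p, −0.34 to 0.22 for the arm difference, −0.23 to 0.32 for miR-99a minus miR-125b-5p and −0.14 to 0.39 for miR-100 minus miR-125b-5p. After MDP it gave −0.29 to 0.23 for miR-99b, −0.31 to 0.21 for miR-100, −0.52 to 0.29 for miR-125a-3p, −0.37 to 0.47 for miR-125b-5p, −0.34 to 0.25 for the arm difference, −0.18 to 0.25 for the seed difference, −0.58 to 0.058 for miR-99a minus miR-125b-5p and −0.30 to 0.20 for miR-100 minus miR-125b-5p. Between MDP and Tri-DAP it gave −0.22 to 0.29 for the arm difference, −0.38 to 0.046 for the seed difference, −0.23 to 0.042 for miR-99b minus miR-125a-5p and −0.44 to 0.084 for miR-100 minus miR-125b-5p.

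With consecutive label numbers as a replicate block, which no label states as a pairing, the smallest limma p among the 6 was 0.47 for the Tri-DAP comparison and 0.66 for MDP. Within such sets, the smallest exact permutation p of a difference within an array was 0.125, the smallest possible. The 6 differences of MDP against Tri-DAP (−0.057 to 0.28) were 0.30 to 0.64 with the median U6 well, 0.38 to 0.83 without Tri-DAP 8 and −0.38 to −0.024 without Tri-DAP 14. The calls over all miRNAs depended more on the settings. The 4 calls after Tri-DAP became 12 without Tri-DAP 8, 8 with the block or with wells kept at 40, 7 without normalization or without control 7, and 1 without Tri-DAP 5 or when all 12 arrays had to be measured. The 3 calls after MDP became 6 with the block, with the median U6 well or without Tri-DAP 8, 5 with the mean miRNA, with the compared groups alone or without control 13, 1 with a Ct limit of 35, without control 4 or without MDP 15, and 0 when all 12 arrays had to be measured. The 7 calls of MDP against Tri-DAP became 17 without Tri-DAP 8, 11 with the median U6 well, 4 with a Ct limit of 35, 3 without Tri-DAP 5 or MDP 6, 2 without Tri-DAP 14 or MDP 15, and 0 when all 12 arrays had to be measured.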
